A study of Mus musculus with 24 samples.

Results

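The 10 genes described here are *Fos*, *Fosb*, *Jun*, *Junb*, *Egr1*, *Atf3*, *Ier2*, *Ier3*, *Nr4a1* and *Dusp1*, which are immediate early genes. They were taken by symbol from the 49568 gene rows of each of 2 expression tables, and each had 1 row in both. RNA of mouse liver cells was sequenced after Smart-seq2, which amplifies whole transcripts as cDNA, in a homeostasis experiment of 12 libraries and a transwell experiment of 12 libraries. In the homeostasis experiment all cells came straight from the sorter. They were EpCAM+ ductal cells (DCs) and 3 stromal gates, double-positive (PDGFRα+SCA1+), PDGFRα single-positive (PDGFRα+SCA1-) and SCA1 single-positive (PDGFRα-SCA1+). All were gated as CD45-, CD11b- and CD31- and came from the same 3 littermates aged 12 weeks (A and E male, F female; n = 3 each). These mice were heterozygous for B6.129S4-Pdgfratm11(EGFP)Sor/J on a C57BL/6 background, so that PDGFRα was read from a nuclear GFP reporter and all 4 populations carry the reporter allele. In the transwell experiment the mice were wild type C57BL/6 aged 8 to 12 weeks, and each of 6 groups had n = 2 libraries. Fresh DCs and fresh SCA1+Msc cells (day 0) were set against DCs grown for 15 days alone in a growth-factor rich medium (EM organoids), DCs grown for 15 days in mesenchymal medium (MM, reduced in growth factors) above SCA1+Msc cells on the other side of a cell-impermeable membrane (co-cultured organoids), and SCA1+Msc cells kept alone or below DCs. SCA1+Msc cells were sorted on SCA1 with no gate on PDGFRα, and came from 2 littermates, while the DCs came from 2 others. Before the 15 days, the cultured SCA1+Msc cells were expanded on the well bottom in MM, while DCs went into Matrigel freshly sorted. The comparison of fresh with cultured cells asks how the 10 genes stand in cells just taken from the liver by enzyme digestion and sorting, and in the same cell types after culture.

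Immediate early genes are transcribed within minutes of a stimulus such as a growth factor, a wound or a mechanical or heat stress, without the need for new protein, and their transcripts are short-lived. The signal reaches them mainly through the ERK, JNK and p38 kinases, which act on factors already bound at the genes, such as SRF with its ternary complex partners and CREB. Many of the products are transcription factors, among them the Fos and Jun proteins that pair to form AP-1, and others switch the signal off again. Tissue digestion and cell sorting are known to turn on these genes in many cell types, and in the liver they also rise early after partial hepatectomy.

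The 10 genes lie apart in the genome, and only *Junb* and *Ier2* (chromosome 8) and *Ier3* and *Dusp1* (chromosome 17) share a chromosome. On GRCm38, *Fos* spans chr12:85473890-85477273 (+), *Fosb* chr7:19302696-19310051 (-), *Jun* chr4:95049034-95052222 (-), *Junb* chr8:84974484-84978718 (-) and *Atf3* chr1:191170296-191218039 (-). *Nr4a1* spans chr15:101254269-101274795 (+), *Ier2* chr8:84661331-84662852 (-), *Ier3* chr17:35821684-35822923 (+) and *Dusp1* chr17:26505590-26562128 (-). Values were counted over the exons of each gene, and the libraries do not keep strand. Of the exon bases, 232 of *Jun* are shared with *Junos*, 173 of *Junb* with *Prdx2* and 11 of *Dusp1* with *Ergic1*, so reads there cannot be assigned to one of the genes.

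The upstream sequences of 6 members are shown as examples, and all members, shown or not, were lower in cultured than in fresh cells in what follows. TGACG, a part of the cAMP response element (CRE) that CREB and ATF proteins bind, recurs in 5 of them, and *Jun* is shown as one without it. *Ier3*, which also lacks it, and *Junb*, which holds it, are not shown. The 4 members with the largest difference between fresh and cultured cells are given first, then *Dusp1* and *Jun*. Sequences are RefSeq's on GRCm38.p6, run 5′ to 3′ on the strand of the gene up to the last base before the start site (for *Dusp1*, up to an exon annotated further upstream), and capitals mark TGACG or its complement CGTCA.
*Fosb*, chr7:19310046-19310295 (-): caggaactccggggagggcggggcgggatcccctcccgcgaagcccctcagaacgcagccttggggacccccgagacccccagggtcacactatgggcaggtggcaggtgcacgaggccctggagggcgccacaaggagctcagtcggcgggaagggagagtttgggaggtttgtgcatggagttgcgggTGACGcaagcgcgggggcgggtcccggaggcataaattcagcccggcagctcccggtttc
*Atf3*, chr1:191183334-191183583 (-): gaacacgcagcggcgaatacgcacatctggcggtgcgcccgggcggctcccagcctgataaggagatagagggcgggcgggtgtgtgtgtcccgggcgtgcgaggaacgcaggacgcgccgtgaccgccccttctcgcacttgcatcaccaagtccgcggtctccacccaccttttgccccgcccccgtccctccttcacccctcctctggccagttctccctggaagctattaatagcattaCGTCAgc
*Nr4a1*, chr15:101266596-101266845 (+): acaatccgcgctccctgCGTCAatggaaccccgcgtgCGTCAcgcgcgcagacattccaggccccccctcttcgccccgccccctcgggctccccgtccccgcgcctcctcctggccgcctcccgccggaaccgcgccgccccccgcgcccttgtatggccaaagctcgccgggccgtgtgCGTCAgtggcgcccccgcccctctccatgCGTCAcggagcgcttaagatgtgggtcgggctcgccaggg
*Fos*, chr12:85473640-85473889 (+): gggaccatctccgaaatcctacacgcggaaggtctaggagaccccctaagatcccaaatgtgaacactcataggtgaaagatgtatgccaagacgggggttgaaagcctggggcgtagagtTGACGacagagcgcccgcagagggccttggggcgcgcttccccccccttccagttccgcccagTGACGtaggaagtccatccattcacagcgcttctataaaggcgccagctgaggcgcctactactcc
*Dusp1*, chr17:26508520-26508722 (-): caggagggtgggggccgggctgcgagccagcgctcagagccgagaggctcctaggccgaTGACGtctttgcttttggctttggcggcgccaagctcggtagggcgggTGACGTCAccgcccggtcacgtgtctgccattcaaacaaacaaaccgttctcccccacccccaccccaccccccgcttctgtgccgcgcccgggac
*Jun*, chr4:95052223-95052472 (-): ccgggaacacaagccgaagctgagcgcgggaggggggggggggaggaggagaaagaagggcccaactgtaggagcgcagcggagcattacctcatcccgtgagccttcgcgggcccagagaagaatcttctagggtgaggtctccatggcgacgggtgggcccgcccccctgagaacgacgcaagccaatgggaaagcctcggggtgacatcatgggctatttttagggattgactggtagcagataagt
TGACG was found on either strand in the 250 bases before and 50 after the start site of 6 of the 8 members with a RefSeq entry (*Fos*, *Fosb*, *Junb*, *Atf3*, *Nr4a1* and *Dusp1*), against 23% of 27025 genes and 20.8% of 32851 promoters of the same length. The full CRE (TGACGTCA, which holds TGACG on both strands) was in 1 of 8 members, *Dusp1*, against 2.03% of genes, and GGGCGG, the GC box, in 7 of 8 against 38.2%. The AP-1 site (TGACTCA or TGAGTCA) was in 0 of 8 (5.95% of genes), and so was the CArG box that SRF binds (1.81%), which says only that these letters are not in this window. *Nr4a1* held 4 matches to TGACG, *Dusp1* 3 and *Fos* 2, and *Jun* and *Ier3* held none. A match is a description of sequence and not evidence of binding.

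Libraries held 19.3 M to 28 M reads in the transwell and 19.6 M to 25.7 M in the homeostasis experiment, as far as low values show. Levels are given as TPM (reads per length of exon, scaled to the same total in each library) for the transwell experiment. For the homeostasis experiment the deposited value is used, which differs from TPM by a factor of 0.722 to 1.39 (How the data were processed). In bulk RNA, fewer cells of a type and less RNA per cell cannot be told apart. Markers of the sorted types were present where labelled: the summed level of 6 ductal markers was 51700 to 53700 TPM in fresh DCs and at least 36900 in organoids, and that of 6 mesenchymal markers 22100 to 23100 TPM in fresh SCA1+Msc cells and at least 36800 in cultured ones. Fresh SCA1+Msc cells also held hepatocyte markers at 16600 to 21400 TPM (6 of 6) and erythroid markers at 8680 to 10800 TPM (5 of 5), and fresh DCs held them at 4260 to 5340 and 5210 to 5310 TPM. After culture the erythroid markers summed to at most 1.81 TPM, and the hepatocyte markers to at most 400 TPM in SCA1+Msc cells and to 177 to 1640 TPM in organoids, so these transcripts move with the comparison of fresh and cultured cells, and their part in it was not tested. Ductal markers summed to 1190 to 2540 TPM in fresh SCA1+Msc cells and at most 554 in cultured ones. Endothelial markers summed to 186 to 191 TPM in fresh SCA1+Msc cells and 98.1 to 196 in cultured ones. Their part was not tested. Myeloid markers (7 genes) summed to 7860 to 9230 TPM in fresh DCs and 2230 to 2630 TPM in organoids, which was not tested either. Of these 7, 1 was below 1 TPM in every fresh DC library, 4 in EM organoids and 2 in co-cultured organoids, so the sums rest on part of the list. In the homeostasis experiment, PDGFRα-SCA1+ cells, which the labels call mesenchymal, held the 6 mesenchymal markers at 208 to 471 TPM against at least 22700 in PDGFRα+ cells, and 5 endothelial markers at 1770 to 2250 TPM against at most 15.7 elsewhere. In them the deposited value of *Pecam1*, which encodes CD31, was 796 ± 116 (SD, n = 3) although the gate was CD31-, so they are named here by their gate alone.

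All 10 genes were lower in cultured than in fresh cells of the transwell experiment (10 of 10 lower, 0 higher). Of the 18133 genes tested, 23.7% were lower and 34.6% higher in culture at an adjusted p under 0.05. The difference, taken as the mean of the 4 cultured groups minus that of the 2 fresh groups, ran from -2.91 ± 0.08 (SE) for *Ier2* to -7.94 ± 0.15 for *Fosb* on the log2(TPM + 1) scale, with a median of -4.34 for the 10 genes against 0.19 for all genes, and adjusted p-values were at most 1.0e-08. In each lineage and culture taken alone, the 10 genes were again lower, against 17.2% of all genes in EM organoids and 19.1% in co-cultured organoids compared with fresh DCs, and 17.4% in SCA1+Msc cells cultured alone and 17.3% in co-cultured ones compared with fresh SCA1+Msc cells. The comparisons of a lineage share their fresh libraries. In all 4, no library of one group overlapped the other for any of the 10 genes. The share of all genes without overlap was not counted, here or in the comparisons below. With n = 2 a group, separation alone says little, and it is given as description only. Fresh and cultured cells also differ in medium, time and handling, which cannot be told apart here.

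Summed, the 10 genes held 1.93% to 2.07% of all TPM in fresh DCs and 3.4% to 3.49% in fresh SCA1+Msc cells. They held 0.167% to 0.179% in EM organoids, 0.269% to 0.273% in co-cultured organoids, 0.0892% to 0.104% in SCA1+Msc cells alone and 0.133% to 0.135% in co-cultured ones. Of the 10 genes, 9 were among the 500 most abundant in fresh DCs and 10 in fresh SCA1+Msc cells, against 2 or 3 in organoids and 0 or 1 in cultured SCA1+Msc cells. In the homeostasis experiment, put on the TPM scale, the share was 2.61% to 2.74% in sorted DCs, 3.77% to 3.81% in double-positive, 3.36% to 4.01% in PDGFRα single-positive and 3.04% to 3.27% in SCA1 single-positive cells. The 2 tables were normalized separately, so levels are set side by side across them and not tested.

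**Figure D1:**
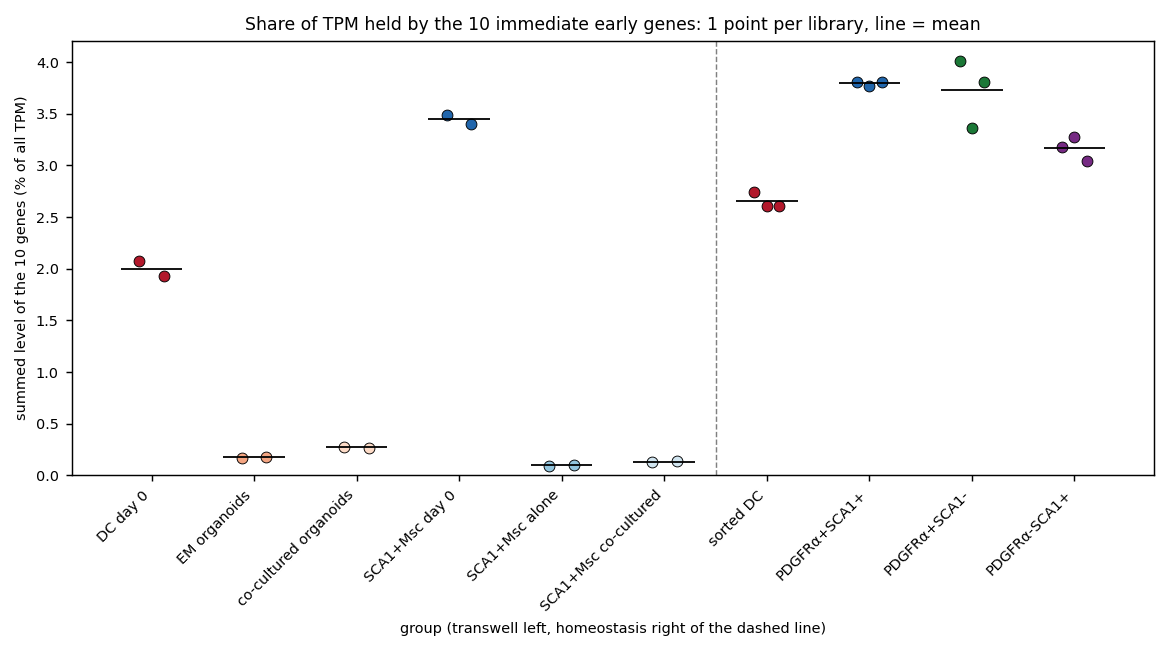
Summed level of the 10 immediate early genes as a percentage of all TPM (linear axis from 0), with 1 point per library and the mean of each group as a line; the dashed line separates the transwell from the homeostasis experiment. All freshly sorted libraries lie between 1.93% and 4.01%, and all cultured libraries at or below 0.273%.

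Among the AP-1 members, *Fosb* had the largest difference over all cultures together, while in EM organoids that of *Atf3* was larger (-8.46 against -6.49 on the log2 scale). It was at 130 and 116 TPM in fresh DCs, at 0.269 and 0.477 in EM organoids and at 0.0358 and 0.0637 in co-cultured organoids, the last being 2 and 3 reads. In SCA1+Msc cells it went from 885 and 883 TPM to 0.522 and 0.239 alone and 0.86 and 0.444 in co-culture (11 to 34 reads). *Fosb*, which encodes a further Fos-type partner of Jun proteins, was thus close to absent in every cultured library, and its fitted difference depends on the pseudocount, being -7.94 with 1 and -9.72 with 0.1. *Fos*, the gene of the classical AP-1 subunit, was at 1240 TPM in both fresh DC libraries, at 73.2 and 65.6 in EM organoids and at 357 and 289 in co-cultured organoids. In SCA1+Msc cells it fell from 6030 and 5370 TPM to 22.1 and 29.6 alone and 29.9 and 37.1 in co-culture. The ratio of fresh to cultured means was therefore 17.9 and 3.85 in DCs (EM and co-cultured) and 221 and 170 in SCA1+Msc cells (alone and co-cultured).

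*Jun* and *Junb* encode the Jun-type subunits, which can pair with each other or with Fos proteins. *Jun* was at 441 and 496 TPM in fresh DCs, 76.4 and 95.9 in EM organoids and 60.6 and 78.5 in co-cultured organoids. It was at 2020 and 1920 TPM in fresh SCA1+Msc cells, 39.3 and 36.9 alone and 61 and 48.4 in co-culture. The fall was 5.44-fold and 6.74-fold in DCs and 51.6-fold and 36-fold in SCA1+Msc cells. *Junb* stayed the most abundant Jun gene in every library. It was at 2690 and 2580 TPM in fresh DCs and at 362 to 499 in the 4 organoid libraries, and at 5670 and 6050 TPM in fresh SCA1+Msc cells and at 179 to 298 in the 4 cultured libraries. *Atf3*, a stress-responsive factor of the same basic leucine zipper class, was at 1780 and 1740 TPM in fresh DCs, 4.62 and 3.42 in EM organoids and 28.3 and 29.3 in co-cultured organoids. In SCA1+Msc cells it was at 1300 and 1500 TPM fresh, 3.51 and 8.89 alone and 13.3 and 12 in co-culture, so that fresh cells held 61.1 to 438 times the cultured level.

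*Nr4a1*, which encodes an orphan nuclear receptor, differed by 71.7-fold to 254-fold. It was at 690 and 620 TPM in fresh DCs and at 6.06 to 9.8 in the 4 organoid libraries, and at 4150 and 3810 TPM in fresh SCA1+Msc cells and at 13.5 to 17.8 in the 4 cultured ones. *Egr1* encodes a zinc finger factor induced through SRF. It was at 1410 and 1450 TPM in fresh DCs, 176 and 172 in EM organoids and 79.1 and 63.7 in co-cultured organoids. In SCA1+Msc cells it was at 6330 and 5670 TPM fresh, 167 and 200 alone and 284 and 271 in co-culture, and it was thus still well expressed in culture. *Dusp1*, whose product is a phosphatase that inactivates MAP kinases, was at 1970 and 1890 TPM in fresh DCs against 69.4 to 145 in organoids, and at 2270 and 2250 TPM in fresh SCA1+Msc cells against 67.2 to 98.1 in culture.

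*Ier2* and *Ier3* encode small proteins of the early response, the latter linked to cell survival. *Ier2* had the smallest difference over the 2 lineages together, and went from 1210 and 1250 TPM in fresh DCs to 165 to 222 in organoids, and from 1190 and 1390 TPM in fresh SCA1+Msc cells to 133 to 148 in culture (ratios of 5.77 to 9.44). *Ier3* was the most abundant member in every DC and organoid library, ranking as number 7 among all genes in both fresh DC libraries. It was at 9130 and 7930 TPM in fresh DCs, 684 and 765 in EM organoids and 1380 and 1430 in co-cultured organoids. In SCA1+Msc cells it was at 5060 and 5210 TPM fresh, 236 and 258 alone and 444 and 465 in co-culture.

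**Figure D2:**
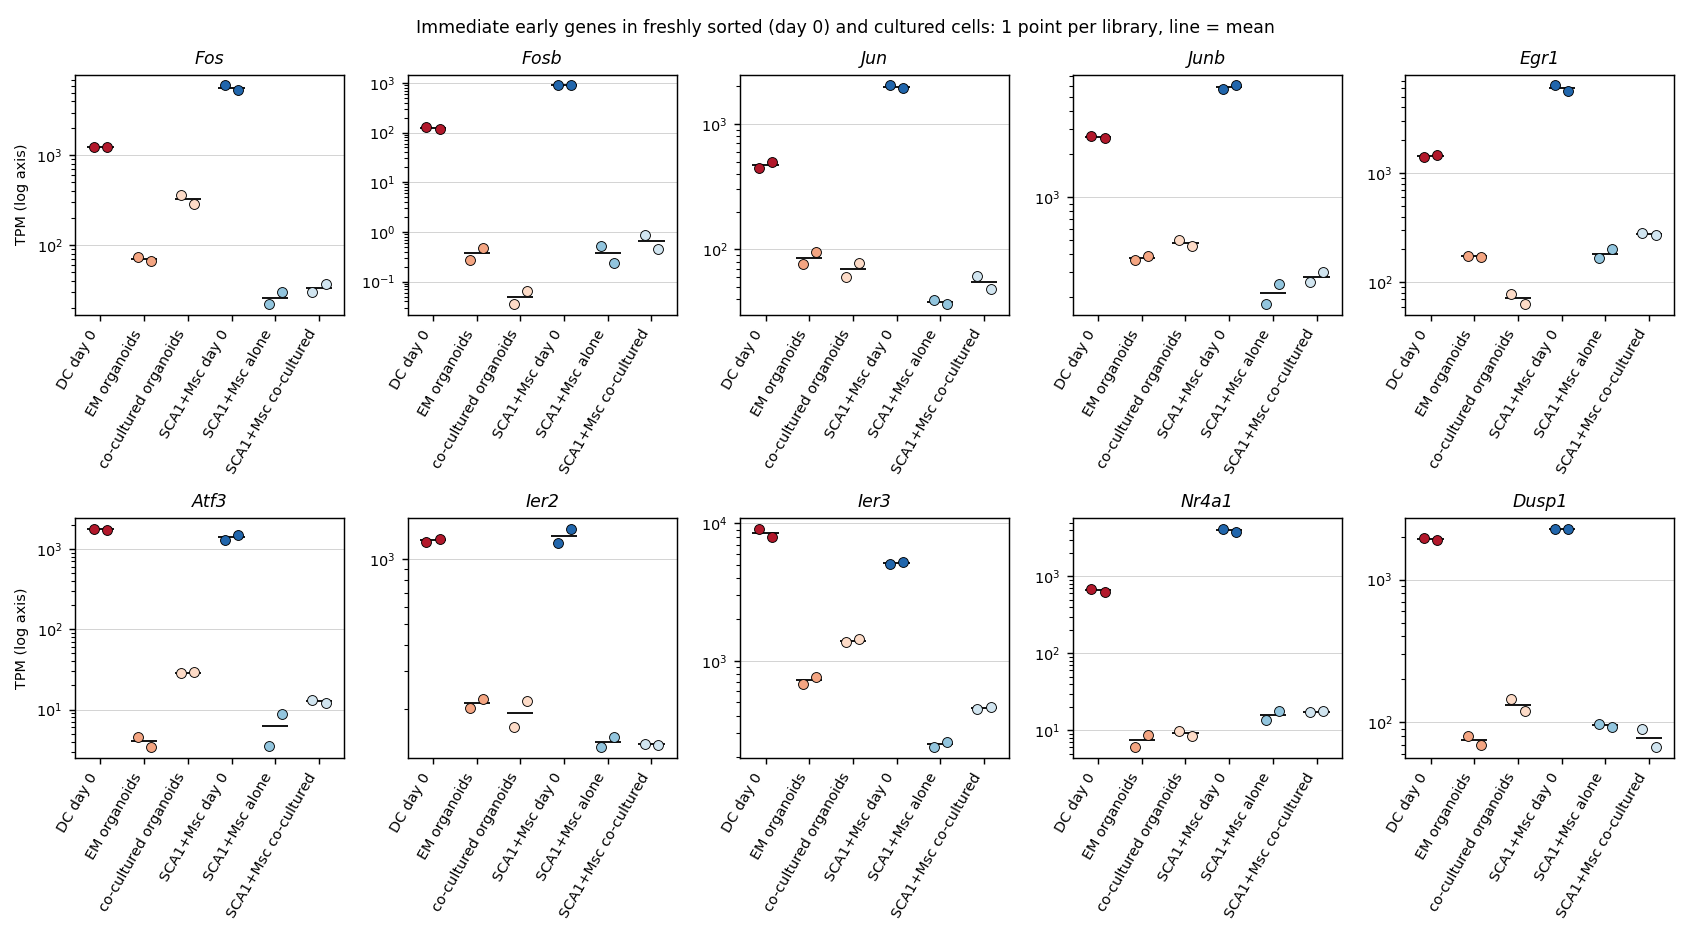
TPM of each of the 10 genes (log axis) in the 6 groups of the transwell experiment, with 1 point per library and a line at the mean. In every panel the 2 fresh libraries of a lineage lie above its 4 cultured libraries, by the widest margin for *Fosb* and the narrowest for *Fos* in DCs, where co-cultured organoids hold 357 and 289 TPM against 1240 in fresh DCs.

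Fresh SCA1+Msc cells and fresh DCs did not hold the 10 genes in the same proportions. *Fos*, *Fosb*, *Jun*, *Junb*, *Egr1* and *Nr4a1* were higher in fresh SCA1+Msc cells (6 of 10, against 21.4% of all genes), by 1.15 ± 0.14 (SE, log2 scale) for *Junb* to 2.84 ± 0.24 for *Fosb*, with adjusted p-values of at most 1.2e-04. *Ier3* was lower by a difference of -0.73 ± 0.09 (adjusted p = 1.2e-04; 1 of 10, against 24.7% of all genes). *Atf3* (-0.34 ± 0.30, adjusted p = 0.407), *Ier2* (0.07 ± 0.14, adjusted p = 0.734) and *Dusp1* (0.23 ± 0.14, adjusted p = 0.241) did not pass the test. For *Ier2* the libraries of the 2 groups overlapped, and for the other 9 genes they did not, with no share of all genes to set beside it. The *Ier3* call was lost when only these 2 groups were fitted (adjusted p = 0.0944).

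The fall in culture was itself larger in SCA1+Msc cells for 8 of the 10 genes. The difference between the lineages (change in SCA1+Msc cells minus change in DCs, each averaged over its 2 cultures, on the log2 scale) was -4.51 ± 0.20 (SE) for *Fos*, -2.81 ± 0.20 for *Jun*, -2.52 ± 0.30 for *Fosb*, -1.95 ± 0.17 for *Junb* and -1.67 ± 0.23 for *Nr4a1*. Smaller differences were -1.06 ± 0.15 for *Egr1*, -0.86 ± 0.11 for *Ier3* and -0.60 ± 0.17 for *Ier2* (adjusted p of the 8 at most 0.0213). Of all genes, 16.5% had such a difference below 0 and 15.7% above 0 at an adjusted p under 0.05. *Atf3* (-0.02 ± 0.37, adjusted p = 0.977) and *Dusp1* (-0.43 ± 0.18, adjusted p = 0.0929) did not pass the test. For *Ier2* the call was lost after quantile normalization (-0.25, adjusted p = 0.284) and in limma without the trend (adjusted p = 0.0873). It was also lost without either fresh DC library (-0.58 and -0.62) or without fresh SCA1+Msc replicate 2 (-0.49). For *Fosb* the call rests on the pseudocount (adjusted p = 0.051 with 0.1), since its cultured levels are close to 0. The hepatocyte and erythroid transcripts given above were also higher in fresh SCA1+Msc cells than in fresh DCs, and their part in these differences was not tested. The lineages also differed in culture: SCA1+Msc cells were expanded beforehand on the well bottom, and DCs grew in Matrigel, in part in EM. Time in culture, support and medium cannot be told apart from lineage here.

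**Figure D3:**
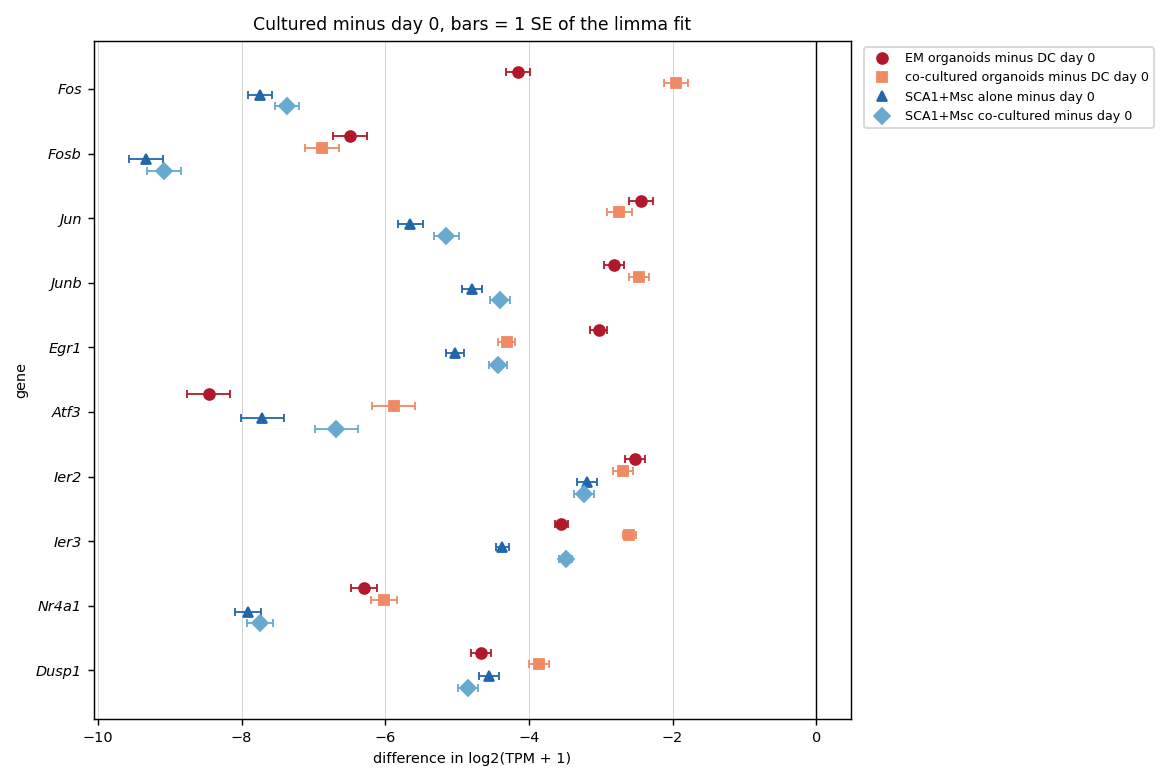
Difference in log2(TPM + 1) between each cultured group and the fresh group of its lineage for the 10 genes, with bars of 1 SE from the limma fit. All differences lie below 0, and the 2 SCA1+Msc cultures (triangles, diamonds) lie left of both DC cultures (circles, squares) for *Fos*, *Fosb*, *Jun*, *Junb*, *Egr1*, *Ier2* and *Nr4a1*.

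Within culture, organoids grown with SCA1+Msc cells in MM differed from organoids grown in EM in 5 of the 10 genes. *Fos* (2.20 ± 0.17 on the log2 scale, adjusted p = 4.3e-05), *Atf3* (2.58 ± 0.30, adjusted p = 5.7e-04), *Ier3* (0.96 ± 0.09, adjusted p = 1.5e-04) and *Dusp1* (0.81 ± 0.14, adjusted p = 0.00559) were higher in co-cultured organoids, which is 4 of 10 against 5.74% of all genes. *Egr1* was lower (-1.28 ± 0.12, adjusted p = 1.8e-04; 1 of 10 against 7.21%). *Fos* at 357 and 289 TPM was thus above the 73.2 and 65.6 of EM organoids while *Egr1* at 79.1 and 63.7 was below their 176 and 172, and both genes are known SRF targets. *Fosb*, *Jun*, *Junb*, *Ier2* and *Nr4a1* did not pass the test, with differences between -0.38 and 0.35 (*Junb* passed it without SCA1+Msc alone replicate 1, adjusted p = 0.0496). The EM and co-cultured arms differ in medium as well as in the presence of SCA1+Msc cells, which cannot be told apart. With only these 2 groups fitted, the calls for *Egr1* (adjusted p = 0.0527) and *Dusp1* (adjusted p = 0.0955) were lost. The *Dusp1* call was also lost without EM organoid replicate 2 (adjusted p = 0.0527) or without co-cultured organoid replicate 1 (adjusted p = 0.0542).

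In SCA1+Msc cells, growth below DCs left 9 of the 10 genes short of the threshold. *Ier3* was higher in co-cultured than in lone SCA1+Msc cells (0.88 ± 0.09 on the log2 scale, adjusted p = 0.0107), at 444 and 465 TPM against 236 and 258. This was 1 of 10 genes higher, against 0.0938% of all genes higher and 0.0331% lower. *Atf3* (1.03 ± 0.30, adjusted p = 0.422) and *Egr1* (0.60 ± 0.12, adjusted p = 0.156) had higher values in both co-cultured libraries without passing the test. So did *Fos* (0.37 ± 0.17, adjusted p = 0.723), *Jun* (0.50 ± 0.17, adjusted p = 0.526) and *Junb* (0.39 ± 0.14, adjusted p = 0.584). *Dusp1* had lower values in both (-0.29 ± 0.14, adjusted p = 0.769), and *Fosb*, *Ier2* and *Nr4a1* overlapped. The *Ier3* call was lost without SCA1+Msc alone replicate 1 (adjusted p = 0.111) or replicate 2 (adjusted p = 0.0582), and without co-cultured replicate 1 (adjusted p = 0.0936). *Ier3* was higher with the other cell type present in both lineages; the organoid arms differ in medium as well.

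In the homeostasis experiment every population was fresh, so the 10 genes were compared between cell types handled in the same way. *Fos*, *Fosb*, *Jun*, *Junb*, *Egr1* and *Nr4a1* were higher in both PDGFRα+ populations than in sorted DCs, and *Atf3* and *Ier3* were lower in both. For double-positive cells that is 6 of 10 higher, against 9.85% of the 17028 genes tested, and 2 of 10 lower, against 14%. For PDGFRα single-positive cells the same 6 were higher, against 9.98%, and the same 2 lower, against 18.9%. These comparisons share the DC libraries. In limma without the trend, *Fos* (adjusted p = 0.0622), *Jun* (0.0894) and *Ier3* (0.058) lost the call in double-positive cells. *Fos* (0.0545), *Jun* (0.0613), *Junb* (0.157) and *Ier3* (0.104) lost it in PDGFRα single-positive cells. With only the groups compared, *Ier3* (0.059) lost it in double-positive cells. *Fosb* (0.0607), *Jun* (0.0523), *Junb* (0.111) and *Ier3* (0.0632) then lost it in PDGFRα single-positive cells. Hepatocyte markers were at 5340 to 5820 TPM in sorted DCs, at most 2050 in the PDGFRα+ libraries and 1650 to 6380 in SCA1 single-positive cells, and erythroid markers were lowest in DCs (495 to 1680 TPM) and highest in SCA1 single-positive cells (3100 to 8470). Myeloid markers were at 5630 to 7300 TPM in sorted DCs, at most 230 in the PDGFRα+ libraries and 285 to 807 in SCA1 single-positive cells. Of these 7 genes, 3 were below 1 TPM in every sorted DC library, so the sum there rests on the others. That held for 1 gene in double-positive, 0 in PDGFRα single-positive and 2 in SCA1 single-positive cells. Ductal markers ranged from 76.9 to 4300 TPM between SCA1 single-positive libraries. The part of these transcripts in the differences was not tested. Leaving out 1 library ended some calls: *Jun* in double-positive cells without DCs of mouse F (adjusted p = 0.077) or double-positive cells of mouse A (0.0548) or F (0.0579), *Junb* in PDGFRα single-positive cells without DCs of A (0.054), E (0.131) or F (0.0802) or single-positive cells of E (0.0899) or F (0.0982), and *Ier3* in them without DCs of A (0.101) or E (0.0709) or single-positive cells of A (0.104). *Ier2* and *Dusp1* passed the test in neither, with differences from -0.31 to 0.08. With the totals undone and the mouse as a block, *Dusp1* was higher in double-positive cells (0.29, adjusted p = 0.0495). For 7 of these 8 genes fresh SCA1+Msc cells of the transwell experiment differed from fresh DCs in the same direction, and *Atf3* did not pass the test there.

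*Nr4a1* separated the populations most. Its deposited value in mice A, E and F was 578, 416 and 695 in sorted DCs, 3680, 4280 and 3470 in double-positive, 2860, 3590 and 4980 in PDGFRα single-positive and 589, 445 and 791 in SCA1 single-positive cells. Both PDGFRα+ populations lay above the other 2 in every mouse, with a difference from DCs of 2.78 ± 0.27 (SE, log2 scale, adjusted p = 1.2e-05) for double-positive and 2.75 ± 0.27 (adjusted p = 1.2e-05) for PDGFRα single-positive cells. *Egr1* was also highest in both, with 3140, 2580 and 2410 in DCs, 5730, 5680 and 5940 in double-positive, 5320, 5320 and 6040 in PDGFRα single-positive and 2260, 1880 and 1860 in SCA1 single-positive cells. Its level in SCA1 single-positive cells lay below that in DCs in every mouse without passing the test (-0.44 ± 0.16, adjusted p = 0.0663, and 0.0468 with a pseudocount of 0.1).

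*Fosb* was higher in both PDGFRα+ populations as well. It was at 396, 316 and 191 in DCs, 871, 948 and 991 in double-positive, 703, 606 and 506 in PDGFRα single-positive and 286, 251 and 220 in SCA1 single-positive cells. Libraries of the 2 PDGFRα+ populations did not overlap for *Fosb*, but the difference between them (0.64 ± 0.26, adjusted p = 0.353) did not pass the test. *Fos* was at 3570, 3630 and 2500 in DCs, 6450, 4980 and 6770 in double-positive, 7360, 5380 and 5480 in PDGFRα single-positive and 4510, 5090 and 4020 in SCA1 single-positive cells. *Jun* was lowest in DCs, at 1810, 1930 and 1370, and was between 2500 and 4260 in the 9 other libraries. *Junb* was at 3190 to 4000 in DCs, 6230 to 8010 in double-positive, 4340 to 6450 in PDGFRα single-positive and 4310 to 6070 in SCA1 single-positive cells.

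*Atf3* and *Ier3* ran the other way. *Atf3* was at 3280, 2690 and 2010 in DCs, 625, 934 and 684 in double-positive, 957, 850 and 1100 in PDGFRα single-positive and 2650, 2620 and 2040 in SCA1 single-positive cells. The DC and PDGFRα-SCA1+ libraries overlapped, and all 6 lay above the 6 PDGFRα+ libraries. *Ier3* was at 14900, 12600 and 10800 in DCs, 4030, 7030 and 8290 in double-positive, 5730, 7600 and 8150 in PDGFRα single-positive and 11700, 12100 and 13300 in SCA1 single-positive cells, so the 2 sets of libraries again did not overlap. *Ier2* lay between 970 and 1820 and *Dusp1* between 1400 and 2390 over all 12 libraries.

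**Figure D4:**
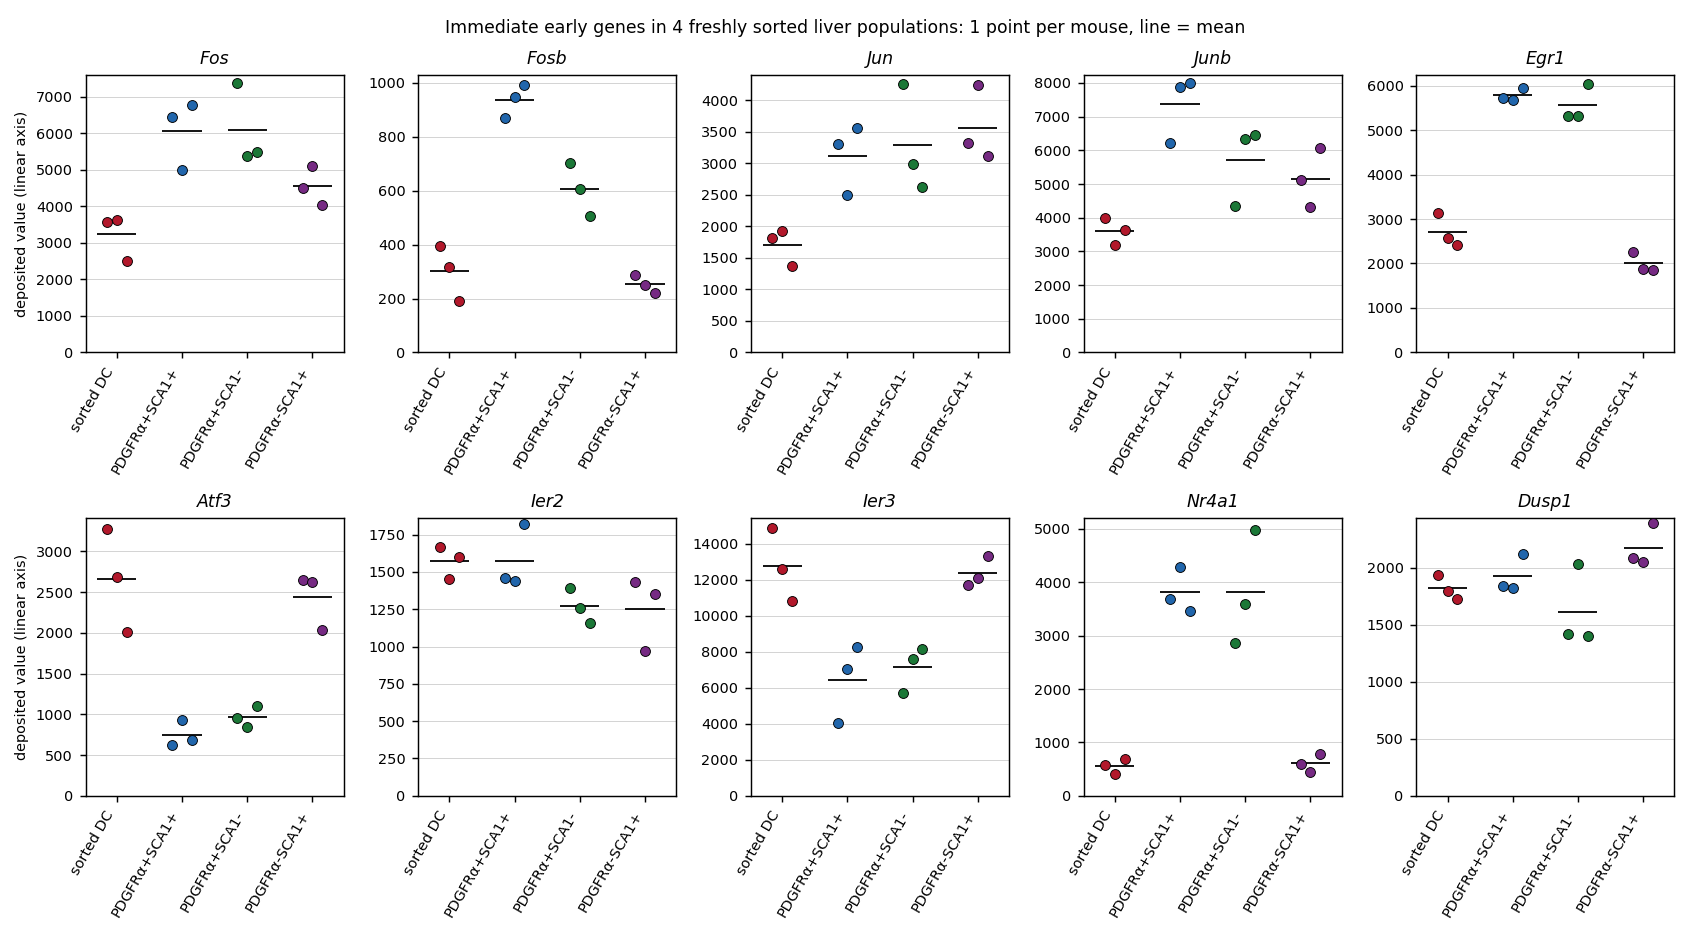
Deposited value of each of the 10 genes (linear axis from 0) in the 4 freshly sorted populations, with 1 point per mouse, from left to right A, E and F, and a line at the mean of n = 3. *Nr4a1* and *Egr1* are high in both PDGFRα+ populations, *Atf3* and *Ier3* in sorted DCs and PDGFRα-SCA1+ cells, and *Ier2* and *Dusp1* differ little.

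SCA1 single-positive cells, which held endothelial markers, differed from sorted DCs in 1 of the 10 genes. *Jun* was higher in them (1.06 ± 0.23 on the log2 scale, adjusted p = 0.00481; 1 of 10 against 11.5% of all genes), and 0 of 10 were lower, against 11.3%. *Fos* (0.51 ± 0.21, adjusted p = 0.104) and *Junb* (0.51 ± 0.20, adjusted p = 0.0969) had values above all those of DCs and did not pass the test. With the reused totals of the deposited table undone, 4 genes passed it, namely *Jun* (1.16, adjusted p = 0.00111), *Junb* (0.61, adjusted p = 7.0e-04), *Dusp1* (0.35, adjusted p = 0.0298) and *Fos* (0.60, adjusted p = 0.0451). The 11.5% and 11.3% are for the deposited scale. No share of all genes is given for the undone scale, so this gain is not read as particular to the members. Against double-positive cells, *Atf3* (1.72 ± 0.23) and *Ier3* (adjusted p = 0.0141) were higher in SCA1 single-positive cells (2 of 10, against 10.9% of all genes), and *Nr4a1* (-2.68 ± 0.27), *Fosb* (-1.89 ± 0.26) and *Egr1* (-1.54 ± 0.16) were lower (3 of 10, against 7.86%). Against PDGFRα single-positive cells the same 2 were higher (14.2% of all genes) and the same 3 lower (7.24%). The *Ier3* call in the latter (adjusted p = 0.039) was lost without DCs of mouse E (0.0562), PDGFRα single-positive cells of A (0.141) or E (0.0568), or SCA1 single-positive cells of A (0.0754), E (0.0825) or F (0.102), and both *Ier3* calls were lost with no filter on low values (0.0546 and 0.117). *Fos*, *Jun*, *Junb*, *Ier2* and *Dusp1* passed neither test as deposited. With the totals undone and the mouse as a block, *Fos* passed both (-0.53, adjusted p = 0.0191, against double-positive and -0.57, adjusted p = 0.013, against PDGFRα single-positive cells), and *Junb* passed the second (-0.29, adjusted p = 0.0236). Without PDGFRα single-positive cells of mouse E, *Dusp1* passed the second (0.62, adjusted p = 0.0193). *Junb* passed the first with the totals undone (-0.64, adjusted p = 6.6e-04).

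Between the 2 PDGFRα+ populations no member was called. In limma, 0 of 10 passed the test between double-positive and PDGFRα single-positive cells, against 0.435% of all genes higher and 0.153% lower (100 genes in all, and 20 with the mouse as a block). At an unadjusted p under 0.05 there was 1 member, *Fosb*. The differences ran from -0.39 ± 0.23 for *Atf3* to 0.64 ± 0.26 for *Fosb*.

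**Figure D5:**
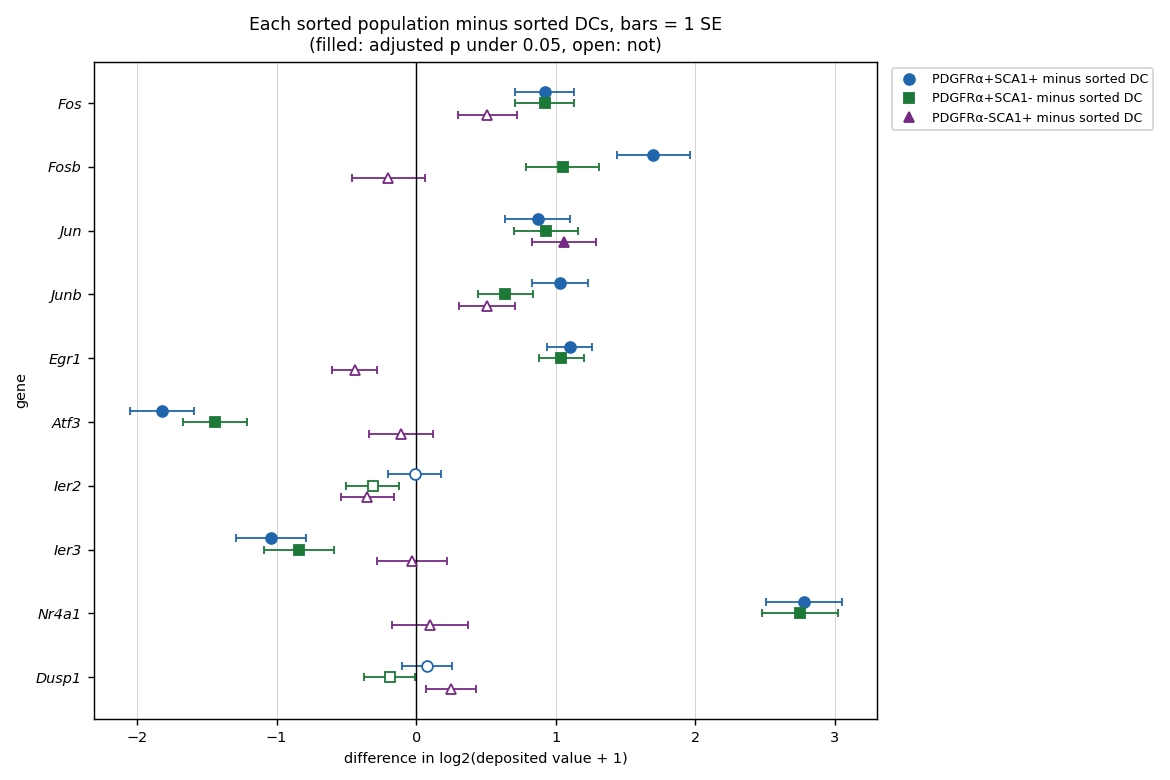
Difference in log2(deposited value + 1) between each stromal population and sorted DCs for the 10 genes, with bars of 1 SE from the limma fit over n = 3 mice; filled symbols have an adjusted p under 0.05. Circles and squares (PDGFRα+) lie together to the right for *Nr4a1*, *Egr1* and *Fosb* and to the left for *Atf3* and *Ier3*, while all triangles (PDGFRα-SCA1+) other than that of *Jun* are open.

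The deposited homeostasis values carry the factor named above, so each member was also set on the TPM scale. All 8 calls in each PDGFRα+ population against DCs held there. The members' differences moved by about as much as the median of all genes, which went from -0.28 to -0.12 for double-positive and from -0.47 to -0.29 for PDGFRα single-positive cells. For example, *Nr4a1* went from 2.78 to 2.99 and *Ier3* from -1.04 to -0.82 in double-positive cells. The SD between mice was smaller on the TPM scale for 29 of the 40 values of a gene in a population and larger for 11. *Ier3* in sorted DCs was 12800 ± 2030 (SD, n = 3) as deposited and 10600 ± 395 TPM, and *Junb* in PDGFRα single-positive cells was 5700 ± 1190 as deposited and 5770 ± 237 TPM. *Egr1* in PDGFRα single-positive cells went the other way, from 5560 ± 418 as deposited to 6240 ± 1070 TPM, and so did *Ier2* there, from 1270 ± 115 to 1340 ± 408 TPM.

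Among the 4 Fos genes, the most abundant one was not the same in all groups. In fresh DCs of the transwell experiment *Fosl1*, a Fos-type subunit whose gene is itself an AP-1 target, held 58.6% to 62.3% of the summed TPM of *Fos*, *Fosb*, *Fosl1* and *Fosl2*, and *Fos* 33.1% to 35.8%. In fresh SCA1+Msc cells *Fos* held 72.3% to 74% and *Fosl1* 13.5% to 13.9%. In EM organoids *Fos* held 71.7% to 75.3%, in co-cultured organoids 82.7% to 84.2%, and in cultured SCA1+Msc cells 28.9% to 40.1%, where *Fosl2* held 37% to 49.7%. *Fosl1* fell from 2180 ± 214 TPM (SD, n = 2) in fresh DCs to 6.21 ± 1.34 in EM organoids, a larger relative fall than that of *Fos*. In the homeostasis experiment on the TPM scale, *Fosl1* held 35.8% to 47.3% in sorted DCs, 12.9% to 25.2% in PDGFRα+ cells and 1.47% to 4.05% in SCA1 single-positive cells.

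*Junb* held 54.4% to 83.7% of the summed TPM of the 3 Jun genes over all 24 libraries, and *Jund*, which is regarded as the least inducible of them, had the smallest difference of the 3 between cultured and fresh cells (-1.49 ± 0.07 on the log2 scale). *Egr1* held at least 87.5% of *Egr1*, *Egr2* and *Egr3* in all libraries. *Nr4a1* held 86.8% or more of the 3 Nr4a genes in all fresh libraries. *Nr4a2*, a close relative of *Nr4a1*, was at 155 ± 2.55 TPM (SD, n = 2) in fresh SCA1+Msc cells and 3.17 ± 0.193 in fresh DCs, and by deposited value it stood at 206 ± 29 (SD, n = 3) in double-positive, 355 ± 78.1 in PDGFRα single-positive, 53.6 ± 30.4 in SCA1 single-positive cells and 4.99 ± 3.51 in DCs.

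Genes of the same response outside the 10 were lower in culture as well. Of 29 other immediate early genes, 29 were lower and 0 higher in cultured than in fresh cells, with a median of -2.89 on the log2 scale. The largest differences were those of *Csrnp1* (-6.27 ± 0.26), *Arc* (-5.97 ± 0.26), *Zfp36* (-5.41 ± 0.07), which encodes an mRNA decay factor, and *Tnfaip3* (-4.73 ± 0.16), an inhibitor of NF-kB signalling. Of 9 other AP-1 subunits 7 were lower, led by *Fosl1* (-6.40 ± 0.22) and *Batf* (-3.44 ± 0.50), while *Atf2* (-0.17 ± 0.12) and *Atf7* (-0.22 ± 0.14), which are regulated mainly at the protein level, did not pass the test. Of 18 kinases and factors upstream of the response, 9 were higher in culture and 6 lower, with *Mapk14* (1.52 ± 0.11) and *Mapk3* (1.23 ± 0.12) the furthest up, and *Crem* (-3.20 ± 0.15) and *Srf* (-1.67 ± 0.16) the furthest down. Of 11 targets of lasting ERK activity 6 were lower and 1 higher, with *Spry4* at -2.40 ± 0.22 and *Spry1* at -2.33 ± 0.22. The background for these counts is the 23.7% lower and 34.6% higher of all genes given above. These lists, like those of the next paragraphs, were chosen with earlier results of these data known, so the counts are descriptive.

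Genes of 2 stress programmes were lower in culture too. All 13 heat shock genes were lower, with a median of -1.66, from *Hspa1a* (-4.60 ± 0.10), an inducible chaperone, to a smallest difference of -0.32. *Hspa1a* and *Hspa1b* (-2.90 ± 0.21) are near-identical copies, and reads may be split between them. Of 8 genes of the integrated stress response 7 were lower and 1 higher, with *Ppp1r15a*, which restarts translation, at -4.96 ± 0.09 and *Atf4*, the central factor, at -2.34 ± 0.06. The change in culture in SCA1+Msc cells minus that in DCs was below 0 for 11 of 13 heat shock genes and above 0 for 1. In the integrated stress response it was below 0 for 1 of 8 and above 0 for 5. Of all genes, 16.5% were below 0 and 15.7% above. In SCA1+Msc cells 3 of the 8 were higher in culture, among them *Chac1* (1.34 ± 0.48 alone and 1.77 ± 0.48 in co-culture), which was lower in organoids than in fresh DCs. Of the 18133 genes tested, 8126 were called in lone SCA1+Msc cells against fresh ones, 3164 of them lower. In co-cultured ones 7856 were called, 3133 of them lower. The rest were higher, so the 3 of 8 are not read as a trait of this list. Of 10 proliferation markers 9 were higher in culture, with *Cdk1* at 4.09 ± 0.20.

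Between co-cultured and EM organoids, 6 of the 29 other immediate early genes were higher, against 5.74% of all genes, and 2 were lower, against 7.21%. *Tnfaip3* (2.02 ± 0.26) and *Klf6* (1.91 ± 0.22) were among those higher, and *Klf2* (-2.04 ± 0.24) was among those lower. *Fosl1* rose by 2.64 ± 0.36 (adjusted p = 0.0014). Of the lasting ERK targets, *Phlda1* (1.43 ± 0.14) and *Ccnd1* (1.36 ± 0.13) were higher and *Spred1* (-1.29 ± 0.34) lower.

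Within a population, some of the 10 genes deviated together from mouse to mouse and others in opposite directions. With the reused totals undone, the mean deviation of the 10 genes from their population mean on the log2 scale ranged from -0.14 (PDGFRα single-positive cells of mouse E, 2 of 10 genes above the mean) to 0.16 (PDGFRα single-positive cells of mouse A, 7 of 10 above). All 4 populations of mouse A were above 0 (0.04 to 0.16) and all 4 of mouse F below (-0.11 to -0.02). Over the 45 pairs of members, the correlation of these deviations across the 12 libraries had a median of 0.1 (range -0.876 to 0.943), and 24 pairs were above 0. The correlation of a member with the mean of the other 9 had a median of 0.421 (range -0.743 to 0.896), and that of all other genes with the mean of the 10 a median of -0.0822, with 43.7% above 0. As deposited the median over the 45 pairs was 0.171, that of a member with the other 9 was 0.304 and that of all other genes 0.0939. Among the 3687 genes that reached 10 in all 12 libraries, those most like the mean deviation of the members as deposited were *Ier5*, *Rps15*, *Ldha*, *Csf1* and *Cebpd* (r = 0.892 to 0.924). With the totals undone their r was -0.319 to -0.088, and the most alike were *Pdxdc1*, *Rnd3*, *Hibadh*, *Mgat1* and *Slc38a10* (r = 0.936 to 0.966 undone, 0.202 to 0.533 as deposited). These libraries share mice, 3 to a population, and the likeness rests on which scale is used. The deposited values carry the reused totals, and the likeness of the genes named as deposited was not kept once these were undone. Both lists were picked as the highest r among 3687 genes over 12 libraries. The r that such a pick gives without any true likeness was not worked out.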

How the data were processed

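Values deposited for 24 RNA-seq libraries were used. Transwell libraries are given as RPKM, which the authors made from single-end reads aligned to GRCm38 with STAR 2.5.0a and counted on exons with featureCounts. TPM was made from RPKM by dividing each library by its sum. The homeostasis table, deposited under the unit TPM by the authors, has columns that sum to 847270 to 1173511, since the totals divided by run through all 12 libraries down the table. Undoing this (an alternative) gave sums of 1000000. Another 4 columns hold the authors' means of 3 mice and were not used. Depth was recovered from values of few reads, of which 93.2% (transwell) and 93% (homeostasis) were whole within 0.02 of a read.

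Values were taken as log2(value + 1), which understates the change of low genes. The fit (limma 3.58.1, R 4.3.3, eBayes with its trend option, 1 mean per group, all libraries of the experiment together) took genes reaching 1 in 2 or more libraries (transwell, 18133 genes) or in 3 or more (homeostasis, 17028 genes). Tests were two-sided, with Benjamini-Hochberg adjustment over all genes and a threshold of 0.05, and scripts were tested on simulated data. The libraries of the homeostasis populations come from the same mice, which pairs them: deviations of libraries of 1 mouse correlated at 0.00395 to 0.0973. Transwell groups have 2 libraries each, which the study calls biological replicates. Genes named are the 10 members, their family members, and up to 4 genes of each other list with the largest difference between fresh and cultured cells, and the 5 genes most like the members from mouse to mouse. *Klf6*, *Klf2*, *Ccnd1*, *Spred1*, *Atf2* and *Atf7* were chosen after their values were seen. Members and lists were chosen with earlier results of these data known. Positions are from GENCODE M21. Alternatives were another pseudocount, no filter, quantile normalization, RPKM, the totals undone, no trend, a block, a fit of only the groups compared, and leaving out each library.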

Additional observations from a re-analysis of the deposited data

Results flagged for a closer look

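The change from fresh to cultured cells differed between SCA1+Msc cells and DCs for 8 of the 10 genes by the interaction term of the limma fit. The values (change in SCA1+Msc cells minus change in DCs, log2 scale) were -4.51 ± 0.20 (SE, adjusted p = 1.3e-06) for *Fos*, -2.52 ± 0.30 (adjusted p = 2.7e-04) for *Fosb*, -2.81 ± 0.20 (adjusted p = 1.6e-05) for *Jun* and -1.95 ± 0.17 (adjusted p = 5.0e-05) for *Junb*. They were -1.06 ± 0.15 (adjusted p = 7.0e-04) for *Egr1*, -0.60 ± 0.17 (adjusted p = 0.0213) for *Ier2*, -0.86 ± 0.11 (adjusted p = 3.7e-04) for *Ier3* and -1.67 ± 0.23 (adjusted p = 5.9e-04) for *Nr4a1*. The *Ier2* call was lost after quantile normalization (-0.25, adjusted p = 0.284), and that of *Fosb* with a pseudocount of 0.1 (-1.72, adjusted p = 0.051). For *Fos* and *Junb*, both fresh SCA1+Msc libraries lay above both fresh DC libraries, and the 4 cultured SCA1+Msc libraries lay below the 4 organoid libraries. The cultures of the 2 lineages also differed in total time, support and medium, which cannot be told apart from lineage. No group of the 2 experiments has 4 libraries, so single libraries that stand apart were not tested.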

How the results depend on the processing

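All 10 genes were lower in culture under each alternative run, overall and in each lineage and culture. Of the members' single values under alternatives, 2815 kept their side of the threshold, of which 45 that were not called took the other sign, 54 lost the call and 21 gained one, and no called value took the other sign. Against sorted DCs, PDGFRα-SCA1+ cells differed in 1 gene as reported, in 2 with a pseudocount of 0.1, in 3 after quantile normalization and in 4 with the reused totals undone, with or without the mouse as a block (the latter was chosen after seeing the data). For double-positive cells 8 genes became 5 without the trend, and for PDGFRα single-positive cells 8 became 4 without the trend and 4 with only the groups compared. For co-cultured against EM organoids 5 became 3 with only the groups compared. For co-cultured against lone SCA1+Msc cells 1 became 0 without the trend and 0 with only the groups compared, and was 0 to 1 when a library was left out. Fewer libraries inform the spread when only 2 groups are fitted, and otherwise the cause was not tested.

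The replicate number as a block kept 10 of 10 genes for fresh against cultured cells and moved the interaction from 8 to 9 genes, *Dusp1* being added. Whether transwell libraries of the same number share a mouse is not known, since their mice are not given. The correlation of their deviations (2 pairs, 0.0043 to 0.0295) cannot decide it. With 2 libraries a group, pairing unlike numbers gives the same value with the sign reversed. The block moved all calls for co-cultured against lone SCA1+Msc cells from 23 to 5. The mouse as a block changed no count of the members on the deposited values. Together with the totals undone (chosen after seeing the data) it gave 9 in place of 8 genes for double-positive cells against DCs, where *Dusp1* was added, and 7 in place of 5 for SCA1 single-positive cells against each PDGFRα+ population. Counts of members under alternatives stand without the share of all genes, so gains and losses are not read as particular to the members.

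Depth limits the cultured *Fosb* values: those of co-cultured organoids rest on 2 and 3 reads, at or under a floor of 3 reads that covers counting error only, so no ratio is given for them.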

Other observations

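Heat shock genes differed between the freshly sorted populations. Of 13, 3 were higher and 0 lower in double-positive cells than in sorted DCs, 5 higher and 0 lower in PDGFRα single-positive cells, and 6 higher and 0 lower in SCA1 single-positive cells, where the share of all genes higher was 9.85%, 9.98% and 11.5%. By deposited value, *Hspa1a* stood at 220 ± 72.2 (SD, n = 3) in sorted DCs, 633 ± 43.5 in double-positive, 1200 ± 403 in PDGFRα single-positive and 1420 ± 193 in SCA1 single-positive cells, and the groups did not overlap with DCs. This order differs from that of *Nr4a1* and *Egr1*, which were low in SCA1 single-positive cells.

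*Batf*, an AP-1 factor best known from lymphocytes, had a deposited value of 207 (180 to 236) in SCA1 single-positive cells, 35.5 (23.4 to 57.2) in double-positive, 18.5 (6.35 to 38.4) in PDGFRα single-positive and 1.33 (0.144 to 3.68) in sorted DCs, with n = 3 each. *Fosl1* ran the opposite way, at 110 ± 54.2 (SD) in SCA1 single-positive cells and 2070 ± 178 in DCs (-4.33 ± 0.29 on the log2 scale, adjusted p = 8.7e-07, limma).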
